A study of Mus musculus with 8 samples.

Results

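The Id genes, the inhibitory Smads and Bambi are the genes most often read as an output of bone morphogenetic protein (BMP) signalling. They were followed here by gene symbol in RNA from the pharyngeal (branchial) arches and heart of single mouse embryos at 10.5 days post coitum. The genes were chosen by symbol: Id1, Id2, Id3, Id4, Smad6, Smad7, Smad9 and Bambi, which is 8 of the 23420 genes in the count table, and all 8 passed the filter on low counts. Arches and looping heart were dissected together from 4 embryos labelled Pygo2 wild-type and 4 littermates labelled Pygo2 mutant, 1 library per embryo. Every group was thus the same tissue and age, and the labels name no other allele, no treatment, no strain and no sex. They do not say what the Pygo2 mutation is, and Pygo2 RNA was still present at 17.3 to 22.0 counts per 1000000 (CPM) in the mutants against 44.6 to 56.2 CPM in the wild-type embryos. The comparison asks how the RNA of arches and heart differs when Pygo2, a nuclear partner of Bcl9 proteins and β-catenin in Wnt signalling, is mutated. These genes bear on BMP signalling, the neighbouring pathway.

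BMP ligands bind pairs of type I and type II receptor kinases, which phosphorylate Smad1, Smad5 and Smad9. These join Smad4 and enter the nucleus, where the complex raises transcription of the Id genes and of the pathway's own brakes. Smad6 and Smad7 are inhibitory Smads that block the receptors or the receptor-regulated Smads, and Bambi is a membrane protein shaped like a type I receptor but without the kinase, so it acts as a decoy. Id proteins carry a helix-loop-helix that pairs with E proteins but lack the basic stretch that touches DNA, so an E protein held by an Id protein cannot bind DNA. In the embryo BMP signals act in the outflow tract and cushions of the heart, in the distal arches and in arch mesenchyme and epithelium. None of these genes reads BMP alone: Smad7 also answers TGF-β, Bambi is also a target of β-catenin in cultured human cells, and Id4 is strongly expressed in neural progenitors.

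The sequence that makes the 4 Id genes a family is shown because it also bears on how well their reads can be told apart. It is the stretch of 40 codons most alike among the 4 coding sequences (GENCODE M21, GRCm38), and it lies in the helix-loop-helix. Capitals mark the 69 of 120 bases that are identical in all 4 genes.
Id1: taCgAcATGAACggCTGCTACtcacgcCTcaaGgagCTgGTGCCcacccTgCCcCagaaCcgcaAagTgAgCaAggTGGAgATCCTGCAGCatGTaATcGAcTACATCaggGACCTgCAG
Id2: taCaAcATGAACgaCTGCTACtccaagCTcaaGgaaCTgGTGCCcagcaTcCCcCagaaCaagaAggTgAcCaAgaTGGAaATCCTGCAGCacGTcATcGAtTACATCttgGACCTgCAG
Id3: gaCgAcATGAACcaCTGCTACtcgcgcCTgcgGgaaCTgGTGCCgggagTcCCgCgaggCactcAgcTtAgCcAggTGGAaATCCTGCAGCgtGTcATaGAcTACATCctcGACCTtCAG
Id4: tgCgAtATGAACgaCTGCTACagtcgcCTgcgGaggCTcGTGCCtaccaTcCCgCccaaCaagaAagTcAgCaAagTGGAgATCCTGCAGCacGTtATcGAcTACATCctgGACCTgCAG

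The stretch covers codons 60 to 99 of Id1, 37 to 76 of Id2, 42 to 81 of Id3 and 66 to 105 of Id4, and 22 of its 40 encoded residues are the same in all 4 proteins. Against Id1, Id2 shared 31 residues of the stretch, Id4 32 and Id3 27. Over whole proteins, identity between Id proteins ran from 39.9% (Id1 and Id4) to 49.6% (Id3 and Id4) of the shorter protein. With a single coding transcript compared for each gene, the longest run of bases shared without a mismatch was 19, between Id2 and Id3. Id1 encodes 148 residues, Id2 134, Id3 119 and Id4 161.

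Smad9 is set apart from Smad6 and Smad7 by the end of its protein, where the receptor phosphorylates the last serines of a receptor-regulated Smad. The last 30 coding bases before the stop codon are shown for Smad9 and Smad6, with the 4 final codons in capitals.
Smad9: tccccacacaaccctatcTCTTCAGTGTCT
Smad6: tggctggagatcctactcAACAACCACAGA

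The capitals of Smad9 encode the motif of serine, serine, any residue and serine, and neither Smad6 nor Smad7 ends in it. Smad6 and Smad7 shared 53.5% of residues over the shorter protein, against 31.2% for Smad6 and Smad9 and 28.9% for Smad7 and Smad9. Smad9 is a transducer of the signal and, as its gene responds to BMP, it stands beside the inhibitory Smads as a readout.

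In GRCm38, the build of mm10, Id1 (ENSMUSG00000042745.9) lies on chromosome 2 from 152736251 to 152737410 on the plus strand. Id2 (ENSMUSG00000020644.9) lies on chromosome 12 from 25093799 to 25097140 on the minus strand, and Id3 (ENSMUSG00000007872.3) on chromosome 4 from 136143497 to 136145755 on the plus strand. Id4 (ENSMUSG00000021379.2) lies on chromosome 13 from 48261228 to 48266026 on the plus strand, where GENCODE also places the opposite-strand RNAs A330033J07Rik and Gm49291. The library kit marks strand, but the sources used here do not say whether counting read it, so reads of Id4 and of these RNAs may not be separated. Smad6 (ENSMUSG00000036867.7) lies on chromosome 9 from 63953076 to 64022059 on the minus strand, and Smad9 (ENSMUSG00000027796.2) on chromosome 3 from 54755582 to 54801257 on the plus strand.

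The promoter windows of Smad6, Smad9 and Id2 are shown because Smad6 and Smad9 varied together between libraries and Id2 had the lowest p of the 8 genes between genotypes. Each runs from 250 bases before to 50 after the start site in RefSeq (GRCm38.p6), at chr9:64022010-64022309 (minus strand), chr3:54755332-54755631 (plus strand) and chr12:25096043-25096342 (minus strand). Capitals mark GGCGCC, a GC-rich element of BMP-regulated Smads, and GTCTAGAC, which is the Smad core GTCT next to its own reverse complement.
Smad6: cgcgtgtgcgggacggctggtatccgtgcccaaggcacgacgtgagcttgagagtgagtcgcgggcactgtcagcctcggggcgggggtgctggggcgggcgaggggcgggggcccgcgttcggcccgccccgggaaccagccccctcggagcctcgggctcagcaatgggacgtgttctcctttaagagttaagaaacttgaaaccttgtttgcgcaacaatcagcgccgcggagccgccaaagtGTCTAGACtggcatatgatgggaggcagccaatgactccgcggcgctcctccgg
Smad9: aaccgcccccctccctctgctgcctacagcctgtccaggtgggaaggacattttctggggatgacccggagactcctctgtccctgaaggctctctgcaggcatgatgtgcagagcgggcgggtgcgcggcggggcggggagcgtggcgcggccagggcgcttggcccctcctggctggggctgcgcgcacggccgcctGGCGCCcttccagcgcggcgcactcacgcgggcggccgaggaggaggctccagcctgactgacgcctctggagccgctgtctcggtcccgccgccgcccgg
Id2: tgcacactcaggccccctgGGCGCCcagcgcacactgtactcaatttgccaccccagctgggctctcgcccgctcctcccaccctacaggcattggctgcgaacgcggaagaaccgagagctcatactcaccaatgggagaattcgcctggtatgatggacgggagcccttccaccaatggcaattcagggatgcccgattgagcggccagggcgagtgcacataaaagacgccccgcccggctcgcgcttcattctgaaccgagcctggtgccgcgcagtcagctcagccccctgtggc

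Of the 8 genes, 5 had an entry among these windows (Id2, Id3, Id4, Smad6 and Smad9). GGCGCC, searched on both strands, was found in Id2, Id4 and Smad9, and 11.9% of 32851 windows of the same length hold it. The core GTCT, searched on both strands, was in all of the 5 but Id4, and 88.0% of windows hold it. In Smad6 its 2 matches adjoin across the start site and overlap the longer run GTCTAGAC, which was searched for after they were seen and is in 0.213% of windows. The TCF/LEF core CTTTGA, searched on both strands, was in Id4 alone of the 5, at position 36 counted from the start site, and in 16.0% of windows. These are matches of letters, and no binding was measured here.

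The 8 libraries held 20823890 to 28175968 counts, and the 8 genes took 90 to 4893 counts each per library. The tissue markers were present in every library. The 7 cardiomyocyte markers summed to 7175 to 16999 CPM in wild-type and 10779 to 22693 CPM in mutant libraries, and the 7 arch mesenchyme markers to 234 to 389.9 and 231 to 319 CPM. Other cells were in the dissection too, and the erythroid sum of 23371 CPM in wild-type 1 stood apart from 2815 to 9296 CPM elsewhere. In wild-type 4 the ribosomal precursor Rn45s took 4.83% of counts, while no gene took over 1.40% elsewhere. In bulk tissue, fewer cells of a type and less RNA per cell cannot be told apart.

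Id2, Id3 and Id1 were the abundant members, and their levels per length of all exons lay close together. In CPM per kilobase of exon, the wild-type level was 69.9 ± 9.26 for Id2, 63.7 ± 10.0 for Id3 and 55.5 ± 8.59 for Id1 (SD, n = 4 each), and the libraries of neighbours in this order overlapped. Bambi followed at 16.3 ± 2.09, below every library of Id1 and above every library of Smad6. Smad6 (7.33 ± 3.32), Smad7 (4.16 ± 1.44), Smad9 (2.16 ± 0.739) and Id4 (1.70 ± 0.793) came last, each overlapping its neighbour. Of the Id genes, Id4 was thus the rare one. With the length of the longest transcript in place of all exons, Id3 (89.3) came before Id2 (86.5). Id1, at 55.5, then lay lower, with every library below those of Id2.

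**Figure D1:**
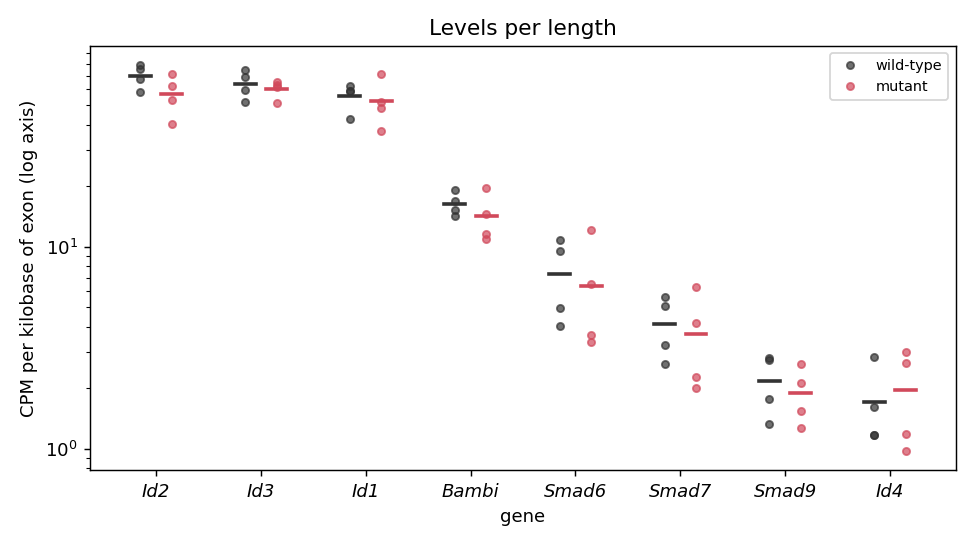
Level of each gene in CPM per kilobase of exon (log axis) in the 4 wild-type and 4 mutant libraries, with points for libraries and bars for means. Id2, Id3 and Id1 form the upper group with wild-type means of 69.9, 63.7 and 55.5, Bambi lies between, and Id4 is lowest in wild-type at 1.70.

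Between genotypes no difference in the 8 genes passed the test. With the quasi-likelihood test of edgeR 0 of the 8 passed an adjusted p of 0.05, against 0.00673% of the 14861 genes tested, which is Pygo2 alone. At an unadjusted p under 0.05 there were also 0 of 8, against 1.30% of all genes. Limma-voom, DESeq2 and the edgeR likelihood ratio test called 0 of the 8 as well, and of all genes Pygo2 alone. In 0 of the 8 did the groups fail to overlap, against 1.04% of all genes. By sign alone 7 of 8 had a lower mean in mutants, and the median of their log2 fold changes was -0.19, where 50% of all genes were lower and the median of all genes was -1.3e-05. With each library left out in turn, 5 to 8 of the 8 were lower. The median then ran from -0.25 without wild-type 3 to -0.051 without wild-type 2, and it was also nearer 0 when wild-type 1 (-0.061), mutant 3 (-0.083) or mutant 4 (-0.085) was left out. The exception in the full fit was Id4. The 7 that were lower spanned -0.31 to -0.08, changes smaller than their own 95% intervals. The authors' deposited table gives the 8 genes a false discovery rate of 1 each.

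**Figure D2:**
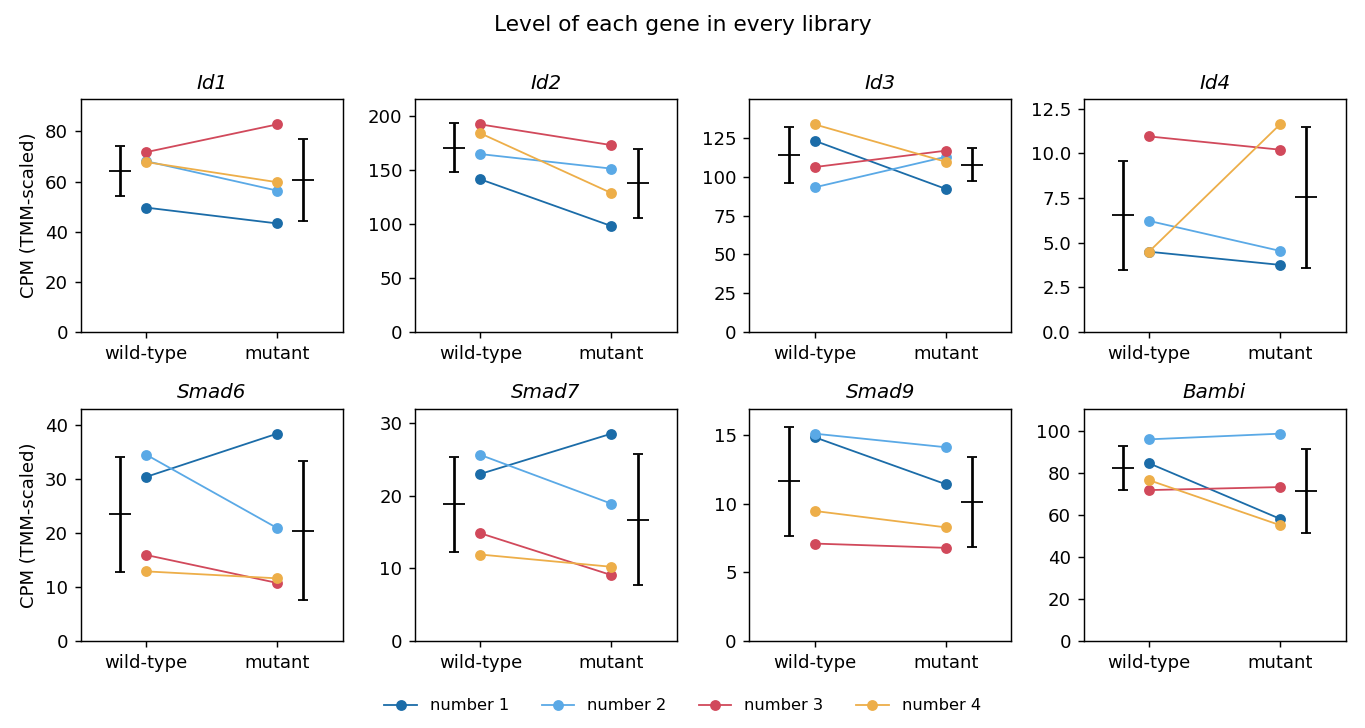
TMM-scaled CPM of each gene in every library, with a line joining the wild-type and the mutant library of the same number and black bars for the mean and SD of 4 libraries. The groups overlap in every panel. Id2 and Smad9 fall along all 4 lines, and the libraries numbered 1 and 2 lie above those numbered 3 and 4 for Smad6, Smad7 and Smad9.

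Id2, an Id gene of heart, arch epithelium and neural crest, had the lowest p of the 8. Its wild-type libraries 1 to 4 held 141, 164, 192 and 184 CPM and its mutant libraries 97.95, 151, 173 and 128 CPM. In 4 of 4 pairs of equal number the mutant library was the lower, but mutants 2 and 3 lay within the wild-type range. The share of all genes lower in 4 of 4 pairs was not counted, here or for the genes named below. Mean levels were 170.3 ± 22.6 and 138 ± 32.0 CPM (SD, n = 4 each), which puts the mutant at 80.8% of wild-type with a 95% interval from 61.5% to 106% (log2 -0.31, SE 0.17). The exact permutation test gave p = 0.143 (two-sided), where the smallest that 70 assignments allow is 0.0286. With the library number as a block, edgeR gave Id2 an adjusted p of 0.968. Its unadjusted value with the block was 0.00829, the 1 value of the 8 under 0.05, where 5.01% of all genes were under it. When 1 library was left out of the fit without the block, the log2 value ran from -0.17 (mutant 1) to -0.44 (mutant 3). Without mutant 3 the edgeR quasi-likelihood test gave Id2 an unadjusted p of 0.0306, where 264 of 14982 genes were under 0.05. The lowest adjusted p of the 8 genes in that fit was 0.99999.

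Id1, the Id gene most used as a direct BMP readout, differed little. Wild-type libraries held 49.6, 68.2, 71.8 and 67.8 CPM and mutant libraries 43.3, 56.4, 82.8 and 59.8 CPM. Mutant 3 was the highest of all 8 and mutant 1 the lowest, so the mutants spanned the wild-type range. The mutant stood at 94.2% of wild-type, with an interval from 69.3% to 128% (log2 -0.09, SE 0.20, exact permutation p = 0.686). The log2 fold change was 0.051 without mutant 1 and -0.27 without mutant 3, the ends of its range when 1 library was left out.

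Id3, which shares much of the pattern and function of Id1, was the steadiest member over all 8 libraries. Among wild-type libraries alone it was not. There its SD was 15.7% of the mean, against 12.8% for Bambi, 13.3% for Id2 and 15.5% for Id1. Its wild-type libraries held 123, 93.2, 106 and 134 CPM and its mutant libraries 92.2, 113, 117 and 109.6 CPM. The highest library was only 1.45 times the lowest, and the pairs were split, 2 lower and 2 higher. Its interval of 77.1% to 116% of wild-type was the narrowest of the 8 (log2 -0.08, SE 0.13, exact permutation p = 0.571). Leaving out 1 library gave -0.17 (wild-type 2) to 0.0048 (wild-type 4).

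Id4 was the 1 member with a higher mean in mutants, and 1 library made it so. Wild-type libraries held 4.50, 6.22, 10.96 and 4.50 CPM and mutant libraries 3.76, 4.54, 10.2 and 11.6 CPM. Both libraries numbered 3 and mutant 4 stood at 10.2 to 11.6 CPM, while the other 5 stood at 3.76 to 6.22 CPM. The mutant was at 115% of wild-type (interval 59.1% to 225%; log2 0.21, SE 0.43, exact permutation p = 0.857), although it was lower in 3 of 4 pairs. Leaving out mutant 4 gave a log2 fold change of -0.082, and leaving out wild-type 3 gave 0.57. The same 3 libraries had the highest sums of the 7 neural tube and neuron markers, 437 CPM in wild-type 3, 539.7 in mutant 3 and 443 in mutant 4, against 29.2 to 149.7 CPM in the other 5. In 4 of those 5 libraries 1 of the 7 markers was at 0 counts. The part of neural tissue in the Id4 level was not tested.

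Smad6, the inhibitory Smad directed mainly at BMP, varied more than any other member. Wild-type libraries held 30.5, 34.6, 16.0 and 13.0 CPM and mutant libraries 38.5, 21.0, 10.8 and 11.7 CPM. The highest library was 3.56 times the lowest, yet the group means were 23.5 ± 10.6 and 20.5 ± 12.8 CPM (SD, n = 4 each). The interval accordingly ran from 43.0% to 176% of wild-type (log2 -0.20, SE 0.45, exact permutation p = 0.771). Single libraries moved this value both ways, to -0.69 without mutant 1, -0.40 without wild-type 4 and -0.34 without wild-type 3. Values near 0 came from leaving out wild-type 1 (-0.049), mutant 4 (-0.0055), mutant 3 (0.012) or wild-type 2 (0.049).

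Smad7, which restrains both BMP and TGF-β receptors, put the 8 libraries in the same order as Smad6. Its wild-type libraries held 23.0, 25.6, 14.8 and 11.9 CPM and its mutant libraries 28.5, 18.9, 9.08 and 10.2 CPM. Mutant 1 was highest and mutant 3 lowest for both genes. The mutant stood at 88.5% of wild-type, with an interval from 48.5% to 162% (log2 -0.18, SE 0.39, exact permutation p = 0.714). It moved with the same libraries as Smad6, to -0.56 without mutant 1, -0.34 without wild-type 4 and -0.27 without wild-type 3. Leaving out wild-type 1 gave -0.065, mutant 4 -0.00067, wild-type 2 0.0092 and mutant 3 0.028. Smad7 lies on another chromosome than Smad6, and the coding transcripts compared for the 2 genes share at most 12 bases in a row.

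Smad9, the least studied of the BMP-regulated Smads, was lower in mutants in 4 of 4 pairs by small amounts. Wild-type libraries held 14.8, 15.1, 7.09 and 9.46 CPM and mutant libraries 11.4, 14.1, 6.78 and 8.27 CPM. Within pairs the log2 differences were -0.37, -0.10, -0.06 and -0.19, against a 2.22-fold range over all libraries. The mutant was at 87.3% of wild-type (interval 54.6% to 139.7%; log2 -0.20, SE 0.30, exact permutation p = 0.60). Leaving out 1 library took the log2 value to -0.39 (mutant 2) or -0.37 (wild-type 3), and to -0.045 (wild-type 2 or mutant 3), -0.057 (wild-type 1) or -0.11 (mutant 4).

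For Bambi, the decoy receptor, the wild-type values were 84.8, 96.2, 72.0 and 76.8 CPM and the mutant values 58.4, 98.9, 73.5 and 55.3 CPM. Mutants 1 and 4 lay below every wild-type library, mutant 2 above every one, and mutant 3 within their range. The mutant was at 86.7% of wild-type, with an interval from 64.7% to 116% (log2 -0.21, SE 0.19, exact permutation p = 0.371). Without mutant 2 the log2 fold change was -0.40 (unadjusted p = 0.0243 and adjusted p = 0.9997 in the edgeR quasi-likelihood fit). In that fit 269 of 15000 genes had an unadjusted p under 0.05. Leaving out mutant 4, mutant 1 or wild-type 2 gave smaller values of -0.10, -0.11 and -0.12. The pseudogene Bambi-ps1 took 8 to 23 counts per library, against 1397 to 2809 for Bambi.

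**Figure D3:**
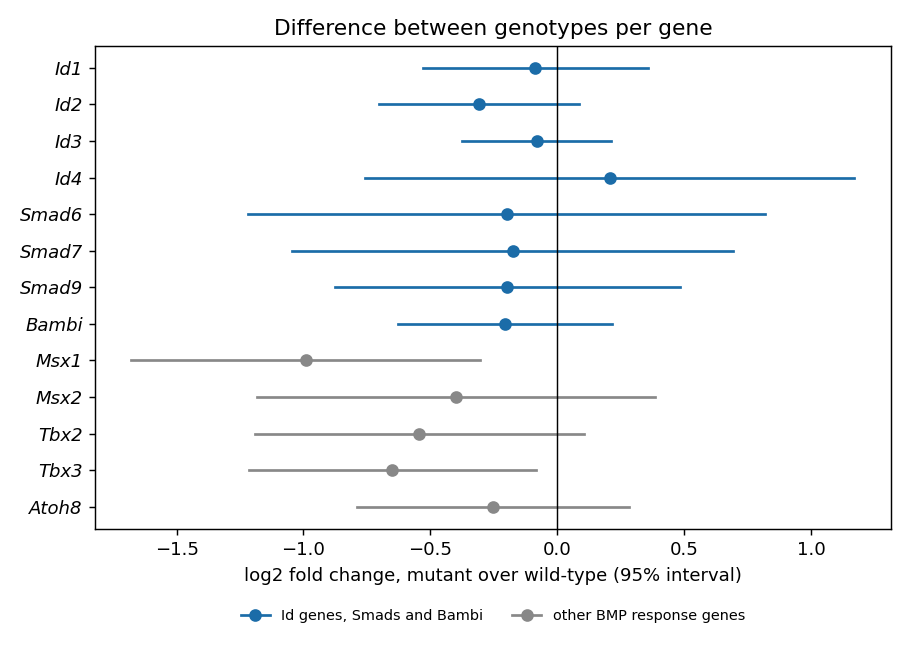
Log2 fold change of mutant over wild-type with its 95% interval from the edgeR quasi-likelihood fit, for the 8 genes (blue) and 5 other BMP response genes (grey). All 8 blue intervals cross 0 and are widest for Smad6, Id4 and Smad7; of the grey ones, those of Msx1 and Tbx3 do not cross 0, though neither passed the threshold over all genes.

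The receptor-regulated Smad9 and both inhibitory Smads differed between library numbers. In both genotypes the libraries numbered 1 and 2 held more Smad6, Smad7 and Smad9 than those numbered 3 and 4, without overlap for any of these genes. This split was seen in the data, and the share of all genes that show it was not counted. Over all genes tested, deviations from the group means correlated at 0.482 for wild-type 1 and mutant 2. For wild-type 1 and mutant 4 the value was -0.611. The mean of the wild-type and mutant library of a number was 34.5, 27.8, 13.4 and 12.3 CPM for Smad6 at numbers 1 to 4. For Smad7 it was 25.7, 22.2, 11.9 and 11.1 CPM, and for Smad9 13.1, 14.6, 6.94 and 8.87 CPM. The labels do not say what the numbers mark. With the number tested as a term beside genotype, 3 of the 8 genes passed (edgeR quasi-likelihood adjusted p = 0.0248 for Smad6, 0.0335 for Smad7 and 0.0304 for Smad9), against 9.84% of all genes. These calls rest on 2 libraries per number: 0 of the 8 passed without wild-type 2, where 0.784% of all genes did, and 0 of the 8 without wild-type 3 or mutant 3, where 0% did. Without mutant 2 only Smad6 passed of the 8 (edgeR adjusted p = 0.0469), and 3.81% of all genes. Without mutant 4 Smad7 was lost (edgeR adjusted p = 0.0590), and 6.06% of all genes passed. The share over all genes also fell in each of these fits, least without mutant 4. It fell without mutant 1 as well, where Smad6, Smad7 and Smad9 still passed.

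Id1 and Id2 did not pass this test. Number 1 was lowest for both, with means of 46.5 CPM for Id1 and 119.6 CPM for Id2, and number 3 highest, with 77.3 and 182 CPM, while numbers 2 and 4 were close together, at 62.3 and 63.8 CPM for Id1 and 158 and 156 CPM for Id2 (edgeR quasi-likelihood adjusted p = 0.0593 and 0.0695). Id3 showed no such order, from 103 to 122 CPM over the numbers (adjusted p = 0.707). Id4 (0.165) and Bambi (0.142) did not pass. Id4 did without wild-type 4 (edgeR adjusted p = 0.0198), where 8.05% of all genes passed, and without mutant 4 (0.0366), where 6.06% did. With the likelihood ratio test Id1 and Id2 passed too, and 22.5% of all genes.

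**Figure D4:**
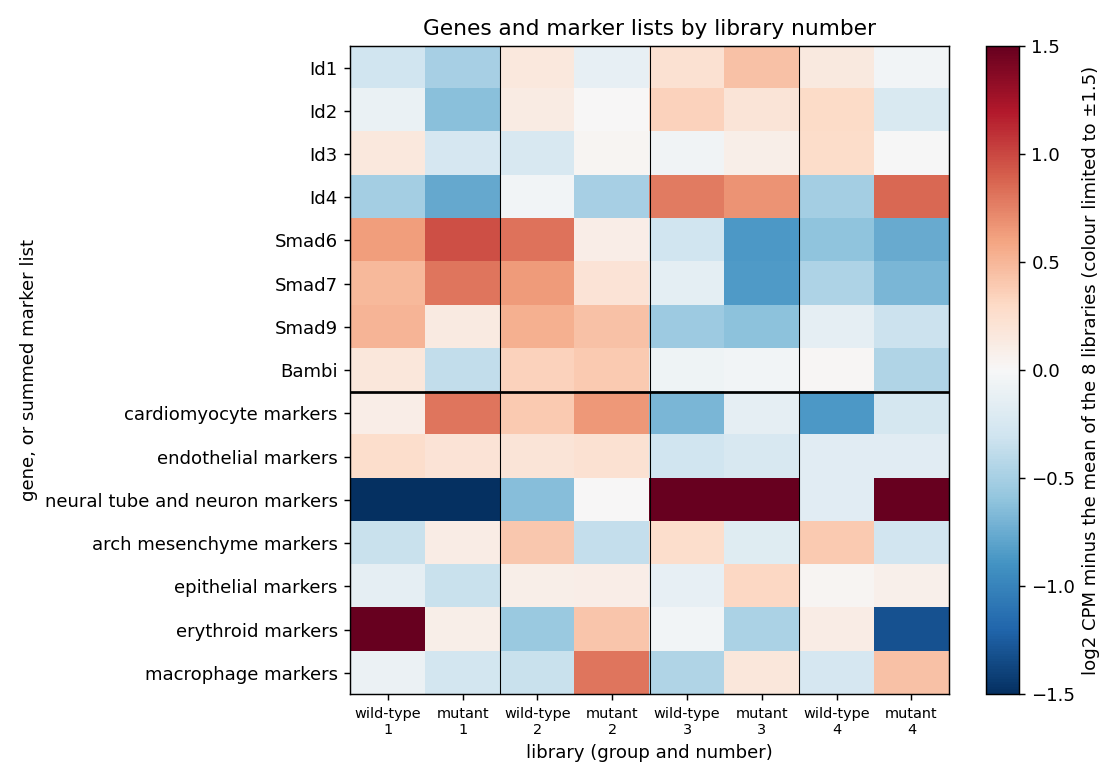
Log2 CPM of each gene, and of the summed CPM of 7 marker lists, minus its mean over the 8 libraries, with libraries ordered by number and the colour limited to ±1.5. Smad6, Smad7 and Smad9 are high at numbers 1 and 2 along with the cardiomyocyte and endothelial sums, while the neural sum is highest in wild-type 3, mutant 3 and mutant 4.

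Marker levels of other cell types moved with the same numbers. The cardiomyocyte sum was 13899 and 16999 CPM in wild-type 1 and 2 against 8063 and 7175 CPM in wild-type 3 and 4, and 22693 and 20442 CPM in mutants 1 and 2 against 11807 and 10779 CPM in mutants 3 and 4. The sum of the 7 endothelial markers was 565 to 593 CPM in the 4 libraries numbered 1 and 2 and 402 to 439 CPM in the others. By the same term, 7 of 7 cardiomyocyte, 3 of 7 endothelial and 5 of 6 tested neural markers passed, against 1 of 7 arch mesenchyme, 2 of 6 erythroid, 0 of 5 epithelial and 0 of 4 tested macrophage markers. Among the pathway lists, 3 of 6 BMP ligands, 2 of 9 receptors and coreceptors, 2 of 5 TGF-β response genes and 1 of 5 other BMP response genes passed. The count was 0 for the 5 transducing Smads, 4 ligases and corepressors, 6 antagonists and 3 E proteins. All these counts stand beside 9.84% of all genes for the same term, and they too rest on 2 libraries per number. The part of these cells in the Smad levels was not tested.

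For each member the genes whose log2 CPM ran most alike over the 8 libraries were taken from 11227 genes with at least 5 CPM, as a description. Smad6 ran most closely with Kcmf1 (Pearson r = 0.99) and Mfhas1 (0.99), and Smad7 with Dennd5a (0.99) and Phactr2 (0.99). Smad9 ran with Fzd1, a Wnt receptor (0.99), and with Bmp4, a BMP ligand of the arches and outflow tract (0.98). Id4 ran with Gpr19 (0.98) and Fzd3, a Wnt receptor with roles in axon guidance (0.98), Id1 with Zfp882 and Zc3h14 (0.98 each), and Id2 with Dynlrb1 (0.98) and Rpain (0.97). Id3 ran with Zfand2b (0.96) and Tmem45a (0.95), and Bambi with Usp53 (0.95) and Myl6 (0.93). Among the members, Smad6 and Smad7 had r = 0.99 and Id1 and Id2 0.85. The 8 points share library numbers and are not independent.

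The ligands, receptors and transducers upstream of these genes did not differ by the threshold either. Of 6 BMP ligands 3 were lower and 3 higher, with 0 called and a median log2 fold change of -0.02. Wild-type libraries held 35.3, 35.3, 15.4 and 21.6 CPM of Bmp4 and mutant libraries 21.6, 30.6, 12.5 and 16.8 CPM, lower in 4 of 4 pairs of equal number although the groups overlapped (log2 -0.40, SE 0.33; edgeR adjusted p = 0.968 with the number as a block). Bmp10, a ligand of the heart, had the next smallest p (log2 0.22, SE 0.42). Of 9 receptors and coreceptors 5 were lower and 4 higher (median -0.02), among them Acvrl1, the type I receptor of endothelium (log2 -0.26, SE 0.14), and Rgmb, a coreceptor (log2 0.17, SE 0.16).

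The transducing Smads stayed near 0. Of Smad1, Smad5, Smad2, Smad3 and Smad4, 3 were lower and 2 higher, all between -0.10 and 0.03 on the log2 scale. Smad4 averaged 103 ± 12.7 CPM over wild-type and 96.3 ± 6.90 CPM over mutant libraries (SD, n = 4 each), which is -0.10 on the log2 scale (-0.35 to 0.15), and Smad5 at -0.07 (-0.26 to 0.13). Of 4 Smad ubiquitin ligases and corepressors 3 were lower (median -0.09), with Smurf2, a ligase that Smad7 brings to receptors, at -0.18 (SE 0.12) and the corepressor Skil at -0.10 (SE 0.10). Of 6 extracellular antagonists 4 were lower (median -0.13), with Grem1 at -0.68 (SE 0.40) from 2.89 CPM and Nog at -0.31 (SE 0.33) from 1.48 CPM. The count called was 0 in each of these lists.

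Other genes known to respond to BMP had lower means in mutants. All 5 of Msx1, Msx2, Tbx2, Tbx3 and Atoh8 did (median log2 fold change -0.54, against -0.19 for the members), 0 were called, and 2 had an unadjusted p under 0.05. These genes were listed with earlier results on Msx1 and Tbx3 known, so their direction is not independent evidence. For Msx1, which encodes a homeodomain repressor, wild-type libraries held 17.9, 47.5, 30.03 and 34.1 CPM and mutant libraries 17.3, 11.2, 22.9 and 13.8 CPM (log2 -0.99, SE 0.31). For Tbx3, a T-box repressor of the conduction system, they held 31.9, 42.5, 24.8 and 33.7 CPM and 13.3, 29.3, 17.7 and 24.5 CPM (log2 -0.65, SE 0.25). The groups overlapped for both genes, and both were lower in 4 of 4 pairs of equal number, as was Tbx2. The share of all genes lower in 4 of 4 pairs was not counted. With the number as a block, the edgeR adjusted p was 0.968 for Msx1, 0.876 for Tbx3 and 0.771 for Tbx2. The difference between the 2 lists was not tested. The arch mesenchyme markers were lower for 7 of 7 in mutants as well (median -0.28, 0 called), and the cardiomyocyte markers higher for 7 of 7 (median 0.37, 0 called). Other lists differed by more: erythroid markers were lower for 6 of 6 (median -0.78), neural markers higher for 5 of 6 (median 0.78) and macrophage markers higher for 4 of 4 (median 0.61), with 0 called in each. Single libraries weighed on the first 2 of these lists. The erythroid sum was 23371 CPM in wild-type 1, against 4725 to 7512 CPM in the other wild-type and 2815 to 9296 CPM in the mutant libraries. The neural sums at numbers 1 to 4 were 42.4, 96.0, 437 and 132 CPM in wild-type and 29.2, 150, 540 and 443 CPM in mutant libraries. Of the macrophage markers 2 had an unadjusted p under 0.05, and for 1 the groups did not overlap. Endothelial markers (4 of 7 lower, median -0.02) and epithelial markers (3 of 5 lower, median -0.09) lay nearer 0. The part of these cells in the lower means of the members and of the BMP response genes was not tested.

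The partners of the Id proteins and the genes of the TGF-β branch did not pass the threshold. The E proteins Tcf3, Tcf4 and Tcf12 were lower for 3 of 3, between -0.09 and -0.02 on the log2 scale, with Tcf3 at 165 ± 18.4 and 155 ± 42.4 CPM and Tcf12 at 479.9 ± 76.7 and 459 ± 56.0 CPM (SD, n = 4 each). Of 5 TGF-β response genes 4 were lower (median -0.08, 0 called), with Pmepa1, a membrane protein that restrains TGF-β signalling, at -0.32 (SE 0.32) and Tgfbi at -0.21 (SE 0.23). Pmepa1 too was higher at numbers 1 and 2 (7.04 to 9.12 CPM) than at 3 and 4 (3.32 to 5.52 CPM).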

How the data were processed

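The submitters' processing notes list mm10 with HTSeq 0.6.1, TopHat2 2.0.11 and edgeR 3.14; annotation, strand setting and filters were not given in the sources. The authors deposited raw counts per gene symbol, used here for all fits, and their own comparison with log2 fold changes and adjusted p-values, quoted only as theirs. The deposited normalized table was not used.

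Genes kept by filterByExpr (14861) were compared with edgeR 4.0.16 (R 4.3.3): TMM, quasi-likelihood test, genotype as the only term, Benjamini-Hochberg adjustment over all genes. CPM was computed with TMM factors, and its log2 with a prior count of 2. Intervals are 95% intervals from the fit. The fit was tested on simulated data. That simulation held only changes larger than those of the 8 members and no effect of library number, so it does not cover either. The members, lists and tests were chosen with earlier results of these data known. Named genes are Pygo2, the 8 members, the 2 list genes with the smallest p in each list, and the 2 genes most alike to each member; Xist and Y-linked genes were left out of the last, and other genes of lists of 5 or fewer are named after their values were seen. The test of library number was added after the data were seen. Ccn2 was read under its older symbol Ctgf; Adgre1 was not found in the table and Olig2 did not pass the filter. Deviations of same-numbered libraries from their group means correlated at 0.556, 0.185, 0.676 and 0.186 for numbers 1 to 4. All were over 0.1, so the numbers were taken as pairs. This comes from the data, as the labels do not explain the numbers. Unlike numbers correlated too, at 0.482 (wild-type 1, mutant 2), 0.427 (wild-type 2, mutant 1), 0.628 (wild-type 3, mutant 4) and 0.253 (wild-type 4, mutant 3). The values thus do not single out equal numbers, and pairing by number is an assumption. Positions and lengths come from GENCODE M21, and proteins were aligned with BLOSUM62. P-values of the fits with genotype alone measure the spread between single embryos. Those of fits with the number as a term measure the spread left after the numbers are fitted. The permutation test took no account of the numbers.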

Additional observations from a re-analysis of the deposited data

How the results depend on the processing

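The 17 other fits covered normalization, tool, filter, the replicate block, removal of erythroid genes and each library left out. Members called stayed at 0 in all of them, where 0 or 1 of all genes passed, and 5 to 8 of the 8 were lower in mutants. Pygo2 itself did not pass without wild-type 1, wild-type 2, mutant 2, mutant 3 or mutant 4 (edgeR quasi-likelihood adjusted p 0.0549 to 0.0973). The 0 in those fits decides nothing about the members. The median log2 fold change ran from -0.25 to -0.051, and outside the fits without 1 library it ran from -0.21 to -0.18; leaving out wild-type 1 gave -0.061, wild-type 2 -0.051, mutant 3 -0.083 and mutant 4 -0.085, moves of over 1.5 times. With the replicate block, genes called were again 1, the members' median was -0.21, and the block changed no call of a member. Without 1 library, genes called ran from 0 to 1, the fits having fewer samples. The sign turned in such fits for Id1 (-0.27 to 0.051), Id3 (-0.17 to 0.0048), Id4 (-0.082 to 0.57), Smad6 (-0.69 to 0.049) and Smad7 (-0.56 to 0.028), and stayed for Id2 (-0.44 to -0.17), Smad9 (-0.39 to -0.045) and Bambi (-0.40 to -0.10); the cause was not tested. Members passing the test of library number were 3 (9.84% of all genes), and 5 by the likelihood ratio test (22.5%), with 0 to 4 when 1 library was left out (0% to 10.5%), alternatives chosen after seeing the data. By the longest transcript the wild-type level of Id2 per length was 0.969 of that of Id3, against 1.10. With 4 embryos a group, the intervals of all 8 genes hold changes in either direction, and those of Smad6, Smad7, Smad9 and Id4 are the widest.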
